A study of Mus musculus with 8 samples.

Results

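Interferon-stimulated genes are the genes that cells switch on after an interferon binds its receptor, and many of their products act against viruses. A list of 34 of them was followed in lactating mammary glands with and without Th-POK, a zinc finger transcription factor encoded by Zbtb7b. Of the 34 genes, 31 had a matched probe on the arrays, and all 31 were well above background on all 8 arrays and were tested, among 14137 genes tested in all. Mx1, Mx2 and Dtx3l had no matched probe and were not analysed here.

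RNA was measured in whole mammary glands of C57/Bl6 female mice at lactation day 1. Each of the 4 samples without Th-POK (KO) and of the 4 with it (WT, wild type) was labelled with Cy3 and put on its own one-colour Agilent array. The arrays are named WT1 to WT4 and KO1 to KO4 by replicate number. The knockout removes Th-POK from the whole body, T cells included. The 4 WT arrays were on slide 1 and the 4 KO arrays on slide 2, so that genotype and slide cannot be told apart in any difference given here. Values are log2 normalized intensities, on which a difference of 1.00 is a doubling, and a gene was called when its adjusted p (limma, Benjamini-Hochberg over all 14137 genes) was under 0.05.

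Type I interferons act through IFNAR1 and IFNAR2, type III interferons through IFNLR1 and IL10RB, and interferon-γ through IFNGR1 and IFNGR2. The first and second of these routes lead, through the kinases JAK1 and TYK2, to a complex with STAT2 and IRF9 that binds a DNA element known as the interferon-stimulated response element. Interferon-γ acts mainly through another DNA element, the gamma-activated sequence, and through induction of IRF1, and many genes answer to more than one route. The lactating gland is mostly secretory epithelium, with fat, stroma and immune cells between the alveoli, and in such tissue a change in RNA per cell and a change in the number of cells of a type cannot be told apart.

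The promoters of the members show how many of these genes carry such elements close to their start. RefSeq windows of GRCm38.p6, from 250 bases before to 50 bases after a gene's start, were found for 24 of the 34 members. The core of the response element, searched on both strands as GAAA, 2 bases of any kind and GAAA again, was present in the windows of 13 of 24 members (54.2%) against 3.99% of 27025 genes with a window. The core of the gamma-activated sequence, searched on both strands as TTCNNNGAA, was present in 6 of 24 (25%) against 9.55% of genes. The members had been picked as interferon-induced, so these shares describe the list. The stretches shown are those of members with a response element core before the start, chosen across the roles described later, with the matched letters in capitals. A run of TTTC repeats is the same core read on the opposite strand.

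Isg15, chr4:156200855-156200916, minus strand: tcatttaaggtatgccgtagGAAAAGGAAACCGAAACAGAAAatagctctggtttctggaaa
Ifit1, chr19:34640765-34640833, plus strand: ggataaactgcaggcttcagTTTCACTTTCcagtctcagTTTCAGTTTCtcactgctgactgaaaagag
Ifit3, chr19:34583353-34583436, plus strand: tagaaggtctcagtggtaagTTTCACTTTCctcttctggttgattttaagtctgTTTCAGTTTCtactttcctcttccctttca
Rsad2, chr12:26456543-26456592, minus strand: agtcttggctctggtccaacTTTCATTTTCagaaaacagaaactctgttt
Stat2, chr10:128270256-128270305, plus strand: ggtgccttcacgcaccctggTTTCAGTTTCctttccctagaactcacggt
Oas1a, chr5:120907526-120907565, minus strand: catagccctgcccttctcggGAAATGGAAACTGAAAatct
Bst2, chr8:71537567-71537622, minus strand: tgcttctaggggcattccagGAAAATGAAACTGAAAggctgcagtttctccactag
Igtp, chr11:58199502-58199551, plus strand: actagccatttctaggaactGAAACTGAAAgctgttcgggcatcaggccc
Irgm1, chr11:48871421-48871470, minus strand: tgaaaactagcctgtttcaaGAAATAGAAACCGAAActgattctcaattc
Gbp2, chr3:142620584-142620633, plus strand: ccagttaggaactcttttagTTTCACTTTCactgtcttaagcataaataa

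Isg15 held 3 overlapping matches, Ifit1 and Ifit3 held 2 separate ones, and Oas1a, Bst2 and Irgm1 held 2 that overlap. The match of Bst2 to the gamma-activated core also overlaps its first response element match. Gbp3 likewise had matches before its start, whereas those of Ifih1 and Ddx58 lay after it. By contrast, the window of Cmpk2, the 1 member called between genotypes, held neither motif. Its bases 250 to 101 before the start are shown for comparison.

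Cmpk2, chr12:26468965-26469114, plus strand: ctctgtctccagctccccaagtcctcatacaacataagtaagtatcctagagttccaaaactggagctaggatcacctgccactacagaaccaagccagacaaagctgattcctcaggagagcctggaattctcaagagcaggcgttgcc

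A missing match says only that these letters are not in the window. Cmpk2 lies next to Rsad2 on chromosome 12, and the neighbours are read from opposite strands.

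The comparison of WT and KO glands asked whether loss of Th-POK moved the interferon-stimulated genes. Cmpk2, the mitochondrial kinase of pyrimidine nucleotides, fell in KO glands to 0.602 of its WT level. No member was called higher in KO, and the other 30 members were not called in either direction. Of all genes tested, 16.5% were called, 7.53% higher and 8.96% lower in KO. Thus 1 of 31 members called was a smaller share than that of all genes. Without WT2, WT3, KO1, KO2 or KO3, the share of all genes called was 5.43%, 6.95%, 5.35%, 6.69% and 3.64%, and 0 members were called in each case. At an unadjusted p under 0.05 (limma) there were 2 of 31 members, Cmpk2 and Ifi35, against 5136 of the 14137 genes tested. The median difference of the 31 members was -0.057 on the log2 scale, KO minus WT, against -0.024 over all genes tested. A higher mean in KO was found for 13 members and a lower mean for 18, but for 15 of the 31 the sign changed when 1 array was left out.

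These differences had wide intervals, as the plot of members by role shows. The 95% interval held 0 for 29 of the 31 members, and for 22 members it lay within 1 log2 unit on either side of 0. For the others a doubling or halving was not outside the interval, and the widest interval, that of Igtp, ran from -1.67 to 0.71. The median half-width was 0.66.

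**Figure D1:**
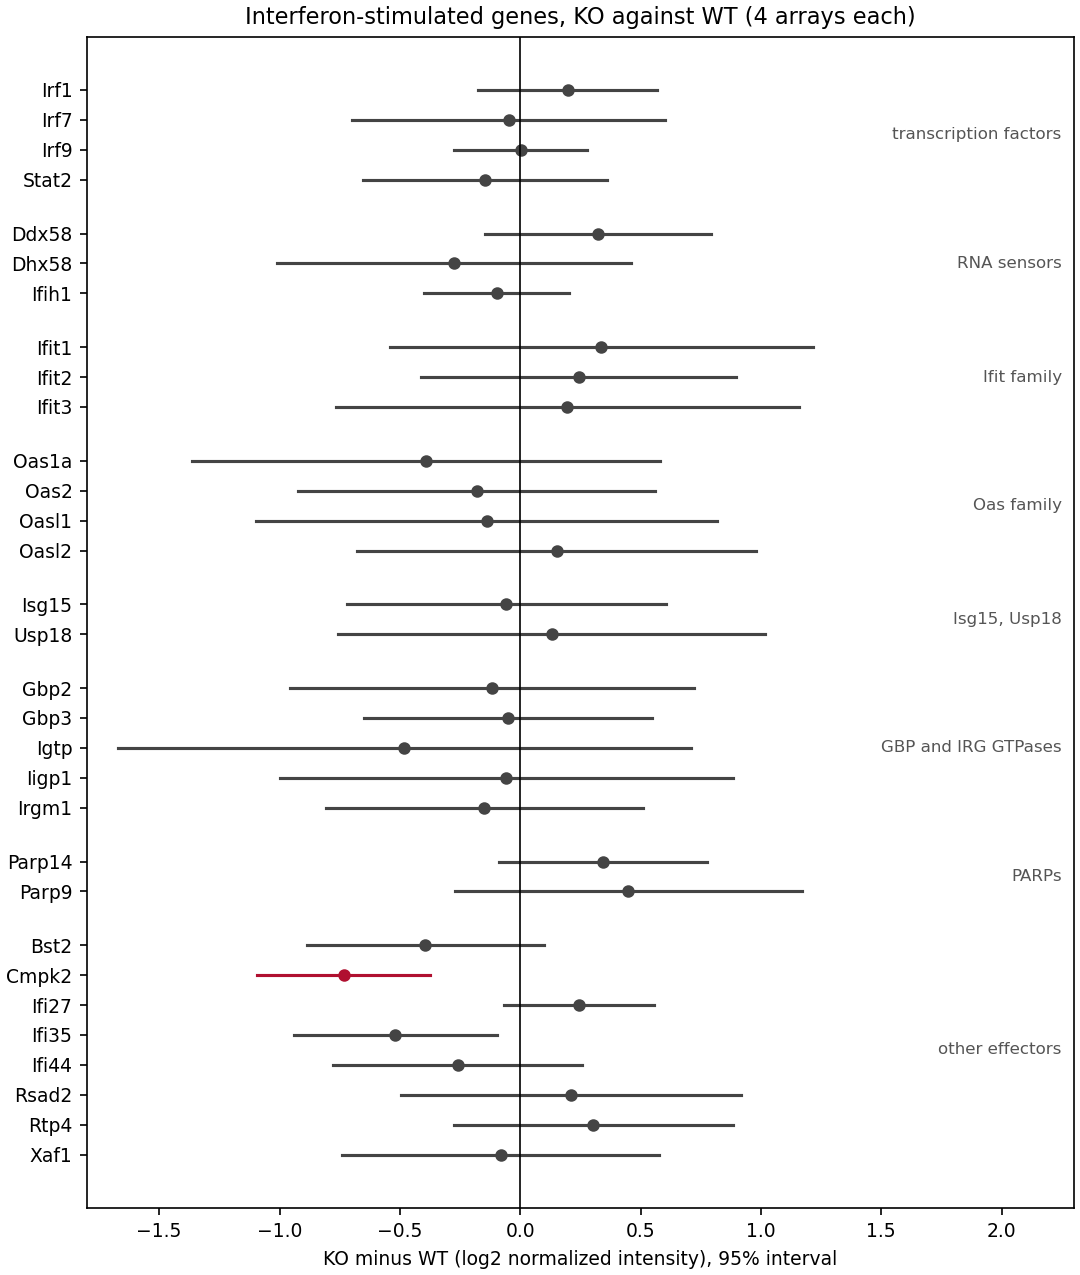
Difference in log2 normalized intensity, KO minus WT, for each of the 31 interferon-stimulated genes tested, grouped by role. Points are differences of means of 4 arrays, lines are 95% intervals from limma, and red marks the gene called. Cmpk2 is the only red line, and besides it only the interval of Ifi35 leaves out 0.

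Cmpk2 was measured at 11.87, 12.01, 11.99 and 12.29 on WT1 to WT4 and at 11.11, 11.13, 11.29 and 11.70 on KO1 to KO4. All 4 KO values lay below all 4 WT values, with KO4 nearest to the WT arrays. The difference was -0.73 (SE 0.16, adjusted p = 0.0223, limma, n = 4 per genotype). Genotypes that did not overlap in this direction were found for 12.9% of all genes tested and for 1 of 31 members. In the other direction the shares were 11.1% of all genes and 0 of 31 members. A second, dimmer probe of Cmpk2 differed in the same direction, by -0.93, and ran from 8.34 to 8.94 in WT and from 7.38 to 7.87 in KO. The call was lost when WT2 (adjusted p = 0.0559), WT3 (0.0522), KO1 (0.0601), KO2 (0.0576) or KO3 (0.0642) was left out, although the limma difference then stayed between -0.86 and -0.65 whichever array was removed.

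Rsad2, the neighbour of Cmpk2, encodes viperin, an enzyme that makes a nucleotide able to end viral RNA chains. It was named after its values had been seen. Rsad2 was measured at 9.40, 9.55, 9.98 and 9.13 in WT and at 10.48, 9.99, 9.18 and 9.25 in KO, so that the genotypes overlapped throughout. The difference was 0.21 (SE 0.31, adjusted p = 0.656, limma, n = 4), and its other probes differed by 0.086 and -0.093. Without KO1 the brightest probe gave -0.041.

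Ifi35 and Parp14 had the next smallest p-values. Ifi35, an interferon-induced leucine zipper protein, read 11.23, 11.66, 11.38 and 11.45 in WT and 11.00, 10.99, 10.41 and 11.25 in KO. Only KO4 reached the WT values, and only that of WT1. The difference of -0.52 (SE 0.18) was not called, with an adjusted p of 0.083 in limma.

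Parp14 and Parp9 belong to the ADP-ribosyltransferases. Parp14 read 12.06, 11.73, 12.08 and 11.40 in WT and 12.53, 11.96, 12.11 and 12.06 in KO, a difference of 0.34 (SE 0.19, adjusted p = 0.22, limma, n = 4). Parp9, whose partner Dtx3l was not analysed here, read 10.92, 10.18, 10.92 and 9.92 in WT and 11.55, 10.55, 11.17 and 10.46 in KO, a difference of 0.45 (SE 0.32, adjusted p = 0.337, limma, n = 4). Both genes were higher in the KO array of every replicate number, but the genotypes overlapped. With the replicate number as a block Parp9 was called at an adjusted p of 0.0435 (limma), the one call among the members that the block added.

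**Figure D2:**
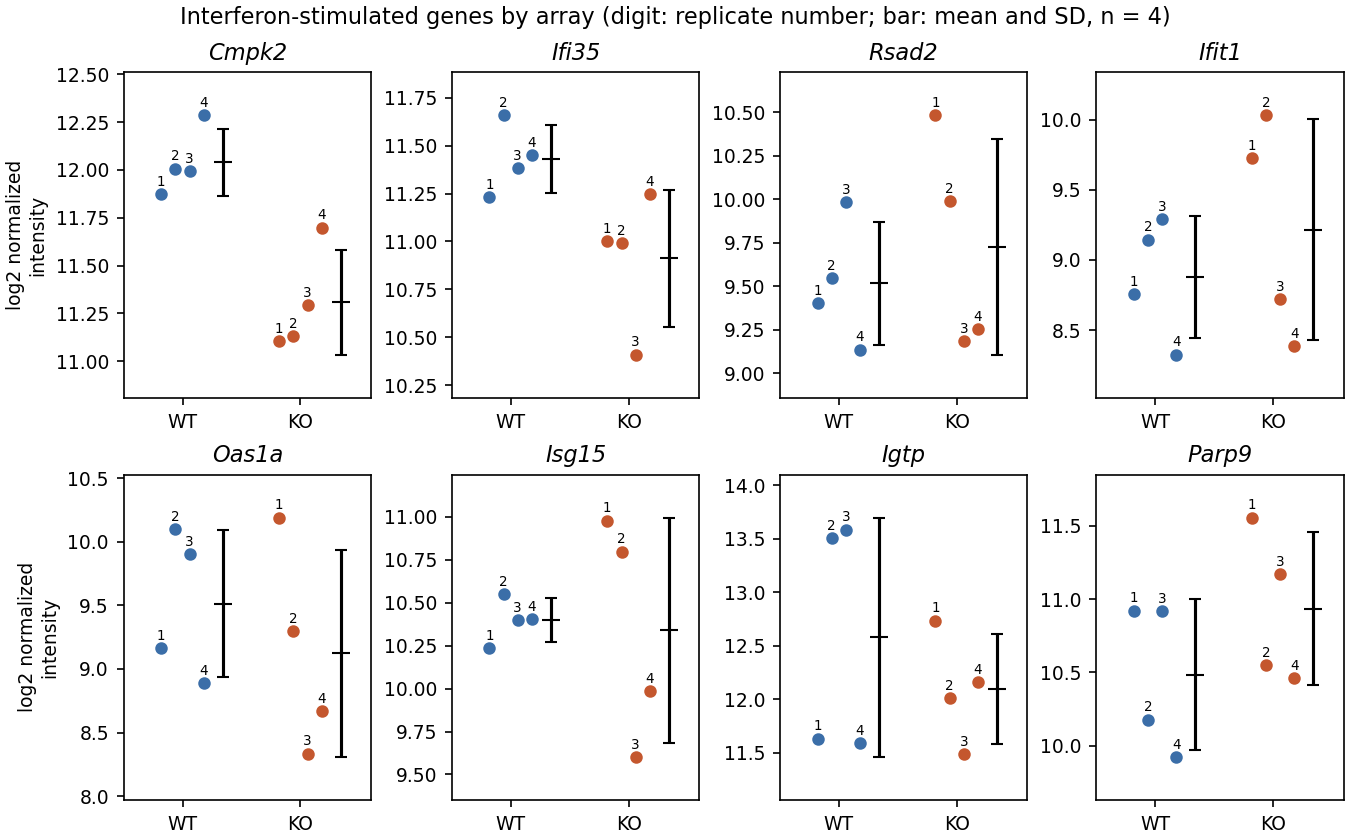
Log2 normalized intensity of 8 interferon-stimulated genes on each array. Points are single arrays with their replicate number, and bars give the mean and SD of 4 arrays. The genotypes are apart for Cmpk2 and overlap for the other 7 genes, and KO1 lies above KO3 and KO4 for each of the genes shown except Cmpk2 and, for KO4, Ifi35.

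Among the transcription factors that carry the interferon signal, Irf1, Irf7, Irf9 and Stat2, the differences ran from -0.15 to 0.20 and the lowest adjusted p was 0.412. Stat2, the partner of Irf9, read 10.68, 11.19, 11.11 and 10.39 in WT and 11.16, 10.67, 10.44 and 10.51 in KO. Irf1 read 12.33, 12.45, 12.67 and 11.99 in WT and 12.73, 12.70, 12.35 and 12.46 in KO. Both genotypes of each gene overlapped. Irf9 varied little between samples, from 11.13 to 11.24 in WT and from 11.01 to 11.40 in KO, and its difference was 0.0017 with an interval of -0.28 to 0.28. Irf7, which amplifies interferon production, ran from 8.82 to 9.25 in WT but from 8.36 to 9.68 in KO.

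The sensors of viral RNA are Ddx58 (RIG-I), Ifih1 (MDA5) and Dhx58 (LGP2). Ddx58 read 10.48, 10.62, 10.82 and 10.12 in WT and 11.34, 10.74, 10.55 and 10.70 in KO, a difference of 0.32 with an interval of -0.15 to 0.79. Dhx58 read 8.48, 8.99, 8.97 and 8.41 in WT and 9.23, 8.73, 8.08 and 7.70 in KO, a difference of -0.28 with an interval of -1.01 to 0.46. The KO arrays of Dhx58 thus spanned more than all 4 WT arrays, on both sides. Ifih1 differed by -0.097, with the narrowest interval of the sensors, -0.40 to 0.20.

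The Ifit proteins bind viral RNA and block its translation. Ifit1 read 8.76, 9.15, 9.29 and 8.32 in WT and 9.73, 10.03, 8.72 and 8.39 in KO, and Ifit2 read 7.59, 7.83, 8.07 and 7.54 in WT and 8.25, 8.74, 7.49 and 7.52 in KO. For Ifit1, Ifit2 and Ifit3 alike, KO1 and KO2 lay above every WT array and KO3 and KO4 did not. The differences of the family ran from 0.20 to 0.34, below its median SD between samples of 0.64. Without KO2 the difference of Ifit2 became -0.0055 and that of Ifit3 -0.12.

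The oligoadenylate synthetases make short oligoadenylates once they bind double-stranded RNA. Oas1a read 9.17, 10.10, 9.90 and 8.89 in WT and 10.19, 9.30, 8.34 and 8.67 in KO, and Oas2 read 9.34, 10.18, 9.76 and 9.18 in WT and 10.13, 9.75, 9.01 and 8.86 in KO. In each genotype the samples split by more than the genotypes differed. Differences of the 4 family members ran from -0.39 for Oas1a to 0.15 for Oasl2, with a lowest adjusted p of 0.541. Oasl1 had the widest KO range of the family, from 7.16 to 9.13.

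Isg15 is a ubiquitin-like protein that is attached to other proteins, and Usp18 removes it and also dampens signalling at the type I receptor. Isg15 read 10.24, 10.55, 10.40 and 10.40 in WT and 10.98, 10.80, 9.60 and 9.98 in KO. The WT samples stood within 0.31 of each other, whereas 2 KO samples lay above and 2 below all of them. Usp18 read 8.94, 9.66, 9.71 and 8.82 in WT and 10.31, 9.81, 8.71 and 8.81 in KO. The mean differences were -0.057 for Isg15 and 0.13 for Usp18, with adjusted p-values of 0.903 and 0.833.

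Guanylate-binding proteins (Gbp2, Gbp3) and immunity-related GTPases (Igtp, Irgm1, Iigp1) attack the membranes around microbes inside the cell. Igtp read 11.63, 13.51, 13.59 and 11.59 in WT and 12.74, 12.01, 11.49 and 12.16 in KO. In WT it fell into a high and a low pair of samples that differed by nearly 2 log2 units, and 3 of the 4 KO samples lay in the gap between the pairs. Irgm1 read 10.82, 11.43, 11.79 and 10.50 in WT and 11.44, 10.94, 10.82 and 10.73 in KO. All 5 GTPase genes had a lower mean in KO, by between 0.051 and 0.48 log2 units, and none was called. The signs of Gbp2, Gbp3, Iigp1 and Irgm1 changed without WT3. Those of Gbp2, Gbp3 and Iigp1 also changed when some other single array was left out.

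The remaining effectors, Bst2, Ifi27, Ifi44, Rtp4 and Xaf1, were not called. Bst2, also known as tetherin, holds budding virus at the cell surface. It differed by -0.39 (interval -0.89 to 0.0996) and was lower in the KO array of every replicate number. Ifi27 was the brightest member, and its difference of 0.24 had an interval of -0.069 to 0.56. Rtp4 and Xaf1 had narrow WT ranges of 0.39 and 0.40 but KO ranges of 1.17 and 1.40.

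The members varied between samples of 1 genotype far more than most genes. The median SD within a genotype was 0.47 on the log2 scale for the members and 0.23 for all genes tested. Of the 31 members, 28 were above the all-gene median, while 14.0% of all genes had an SD above that of the median member. The lowest and highest of the 4 KO arrays were more than 1 log2 unit apart for 19 of 31 members, against 12.8% of all genes. For the 4 WT arrays this held for 8 of 31 members and 16.2% of all genes. The SD was larger in KO than in WT for 23 of 31 members, compared with 41.4% of all genes. The members share their arrays and were picked for a common response, so these counts are a description and no test was made of them.

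The same samples were high or low for most members. KO1 was the highest KO array for 25 of 31 members, KO3 the lowest for 20 and KO4 the lowest for 9. Of the WT arrays, WT3 was the highest for 14 members and WT2 for 11, while WT4 was the lowest for 20 and WT1 for 9. By comparison, KO1 was the highest KO array for 24.8% of all genes tested, KO3 the lowest for 17.8% and KO4 the lowest for 30.3%. WT3 was the highest WT array for 21.6% of all genes and WT2 for 26.4%, while WT4 was the lowest for 29.3% and WT1 for 28.5%. The 9 of 31 members (29.0%) lowest on KO4, and likewise on WT1, were thus near the share of all genes. The mean of the 31 members was 10.68, 11.07, 11.13 and 10.61 on WT1 to WT4 and 11.38, 11.02, 10.42 and 10.53 on KO1 to KO4. The KO arrays thus held both the highest and the lowest mean. The genotype means were 10.87 ± 0.27 for WT and 10.84 ± 0.44 for KO (SD, n = 4), and the difference was -0.034. KO minus WT by replicate number gave 0.70, -0.052, -0.71 and -0.073.

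**Figure D3:**
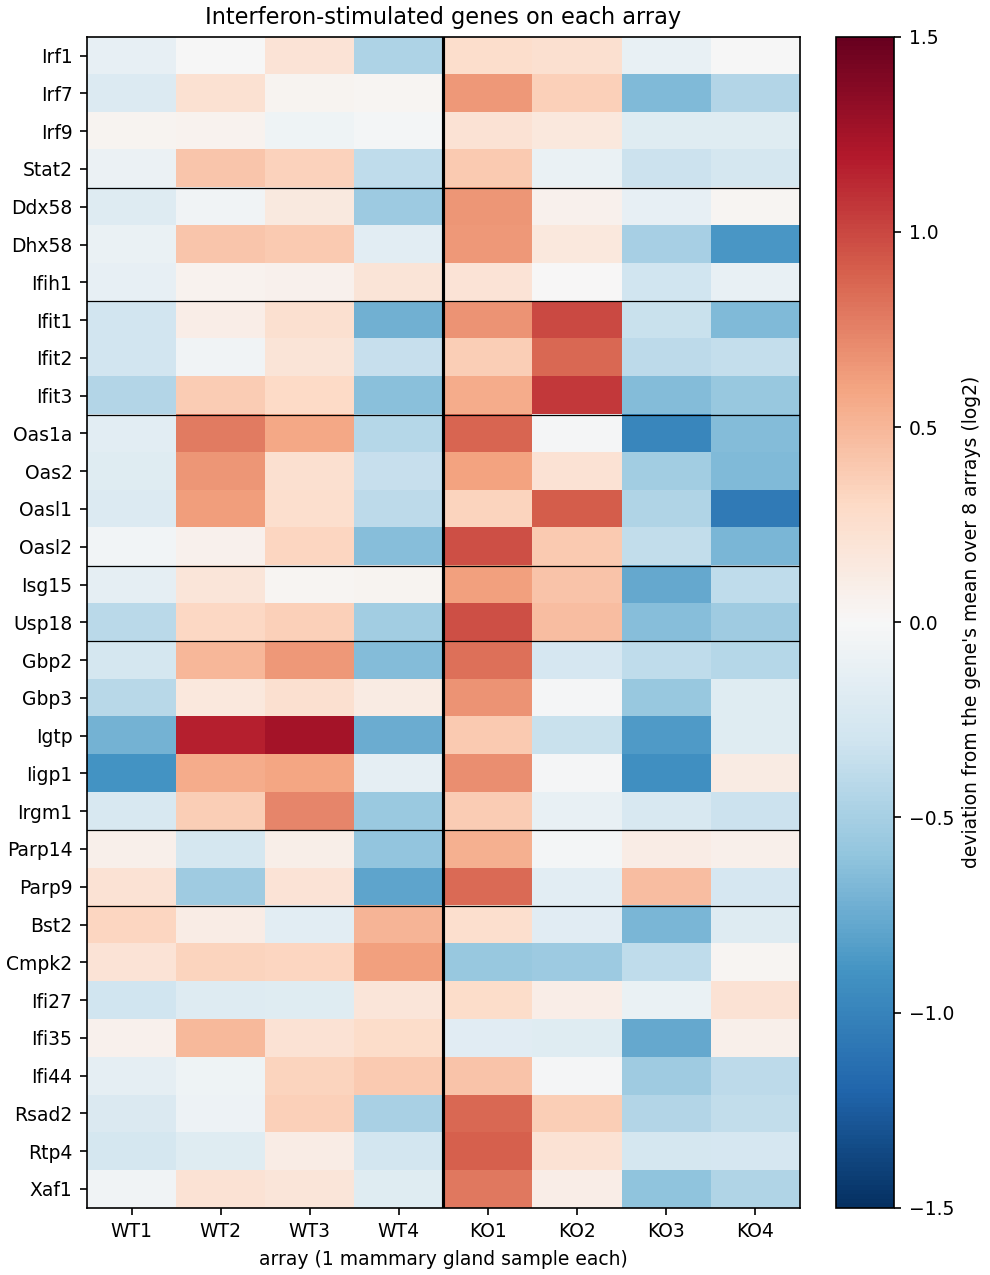
Each of the 31 interferon-stimulated genes (rows, grouped by role) on each of the 8 arrays (columns), coloured by its deviation in log2 units from its own mean over the 8 arrays. KO1 is mostly red and KO3 and KO4 mostly blue, and WT2 and WT3 are mostly red where WT1 and WT4 are mostly blue.

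Members linked to interferon-γ (Irf1, Gbp2, Gbp3, Igtp, Irgm1, Iigp1) were also averaged apart from the other 25. This grouping did not follow the promoter matches. The gamma-activated core was in 2 of the 5 windows of this group and in 4 of 19 of the others. The response element core was in 4 of 5 and in 9 of 19. The mean of the 6 interferon-γ-linked genes was 11.65, 12.55, 12.70 and 11.69 in WT and 12.63, 12.01, 11.58 and 11.93 in KO. WT3 was the highest WT array and KO1 the highest KO array for all 6. The mean of the other 25 was 10.44, 10.72, 10.76 and 10.35 in WT and 11.07, 10.78, 10.14 and 10.20 in KO, where KO1 and KO2 stood above all WT arrays. The genotypes differed by -0.11 in the first mean and by -0.016 in the second, both smaller than the SD within either genotype.

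Ifng, the gene of interferon-γ itself, read 4.27, 6.30, 6.30 and 4.29 in WT and 5.23, 4.94, 4.85 and 4.99 in KO. WT2 and WT3 were high and WT1 and WT4 low, as for Igtp, and the KO arrays lay between. T cells are a source of interferon-γ. The mean of 8 of the 10 listed T cell markers was 6.09, 7.11, 7.24 and 6.10 in WT and 6.39, 6.37, 6.13 and 6.26 in KO. All 8 had a lower mean in KO and 2 were called lower, Cd3e (-0.60, adjusted p = 0.0369) and Cd4 (-0.43, adjusted p = 0.0403, limma, n = 4). Over all genes tested, 8.96% were called lower. WT2 and WT3 were above WT1 and WT4 in the mean but not in each marker, since Cd3e read 6.95, 7.59, 6.99 and 7.24 in WT. The 8 markers were well above background on every array, but Cd4 was dim. It read 4.26 to 4.37 in KO, where the lowest signals well above background were 3.56 to 4.17. WT2 and WT3 were also highest in the means of the NK cell (6.66, 7.16, 7.35 and 6.82 on WT1 to WT4), B cell (5.74, 6.25, 6.09 and 5.86), macrophage and both dendritic cell lists. This was not so in the neutrophil, epithelial, adipocyte, endothelial and fibroblast lists. The part of T cells, or of any of these other cells, in the values of the interferon-stimulated genes was not tested.

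**Figure D4:**
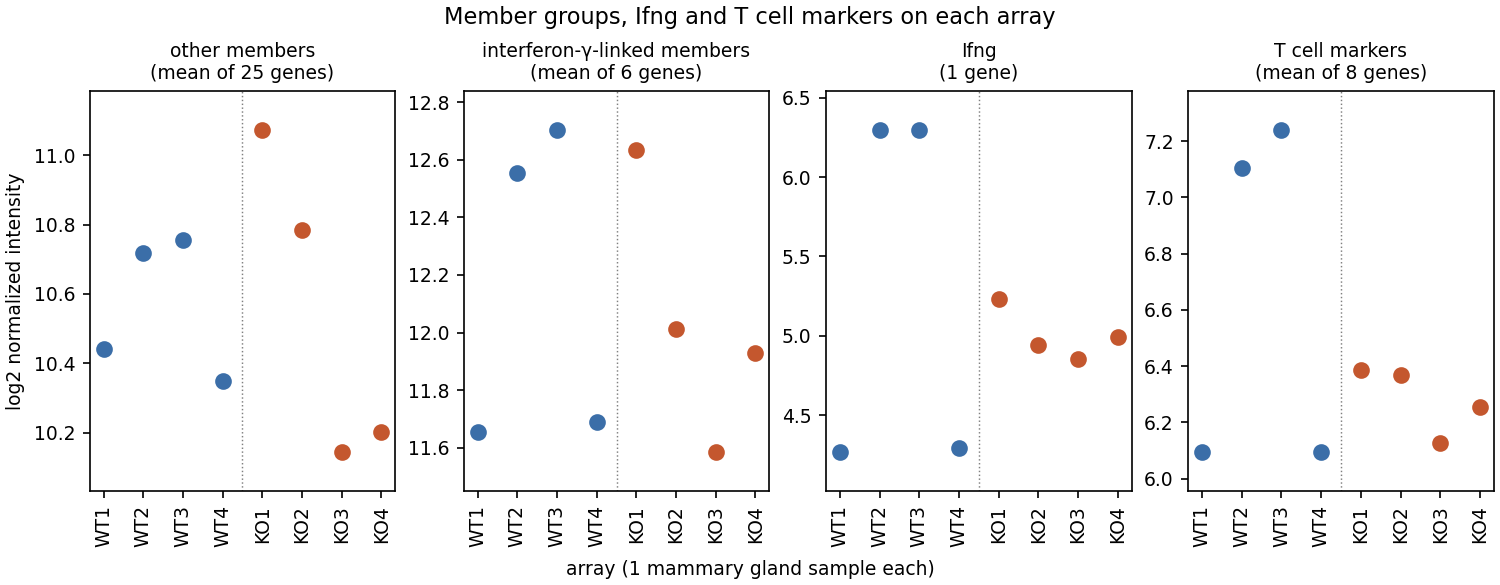
Log2 normalized intensity on each array of the mean of 25 members, of the mean of 6 interferon-γ-linked members, of Ifng and of the mean of 8 T cell markers (WT blue, KO orange, 1 point per array, each panel with its own axis). WT2 and WT3 lie above WT1 and WT4 in every panel, and Ifng has a WT range of 2.03 log2 units.

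The arrays also carried the genes that stand before the members in the pathway. Of 19 interferon genes listed, 12 had a matched probe and 7 were tested. None was called, and Ifna5 alone had an unadjusted p under 0.05 (limma, no block), as had 5136 of the 14137 genes tested. Ifnb1, the interferon most cells make first, and Ifna4 were not well above background on any array. Ifna5 was well above background on all 4 WT arrays and on none of the KO arrays, at least 1.46-fold higher in WT, with an adjusted p of 0.0729 in limma and of 0.029 with the replicate block. It was thus tested only through the WT arrays, where it is high. Ifng differed by -0.28 (SE 0.50, adjusted p = 0.713, limma, n = 4).

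Both chains of the receptor for type III interferons rose in KO glands. Ifnlr1, the chain found mainly in epithelia, read 10.60, 9.37, 9.95 and 10.45 in WT and 11.54, 12.02, 11.04 and 10.85 in KO. Its difference was 1.27 (SE 0.33, adjusted p = 0.0367, limma, n = 4), which is 2.41-fold. Il10rb, the chain shared with the interleukin-10 family, read 12.45, 11.91, 12.22 and 12.05 in WT and 13.09, 12.56, 13.01 and 12.90 in KO. Its difference was 0.73 (SE 0.16, adjusted p = 0.0229, limma, n = 4), which is 1.66-fold. In both genes all KO arrays lay above all WT arrays. Ifnlr1 lost its call with the replicate block (adjusted p = 0.059) and without WT2 (0.085), WT3 (0.0838), KO1 (0.0879), KO2 (0.0806) or KO3 (0.0721). Il10rb kept its call with the block but not without WT2 (0.0614), WT3 (0.0521), KO1 (0.0617) or KO3 (0.0693).

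The chains of the other interferon receptors were not called. Ifnar1 read 8.60, 8.14, 8.51 and 7.78 in WT and 8.70, 8.56, 8.87 and 8.39 in KO, a difference of 0.37 (interval -0.073 to 0.82, adjusted p = 0.202, limma, n = 4). Ifnar2 differed by -0.00875 (interval -0.34 to 0.32) and Ifngr1 by -0.037 (interval -0.31 to 0.23). Ifngr2 differed by 0.59 (interval -0.027 to 1.20), with WT1 above 3 of the 4 KO arrays, and was called at an adjusted p of 0.0229 without WT1. Jak1 and Tyk2 differed by 0.22 and 0.069, and their genotypes overlapped. Whether the type III receptor differed from the others in its response to the genotype was not tested.

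**Figure D5:**
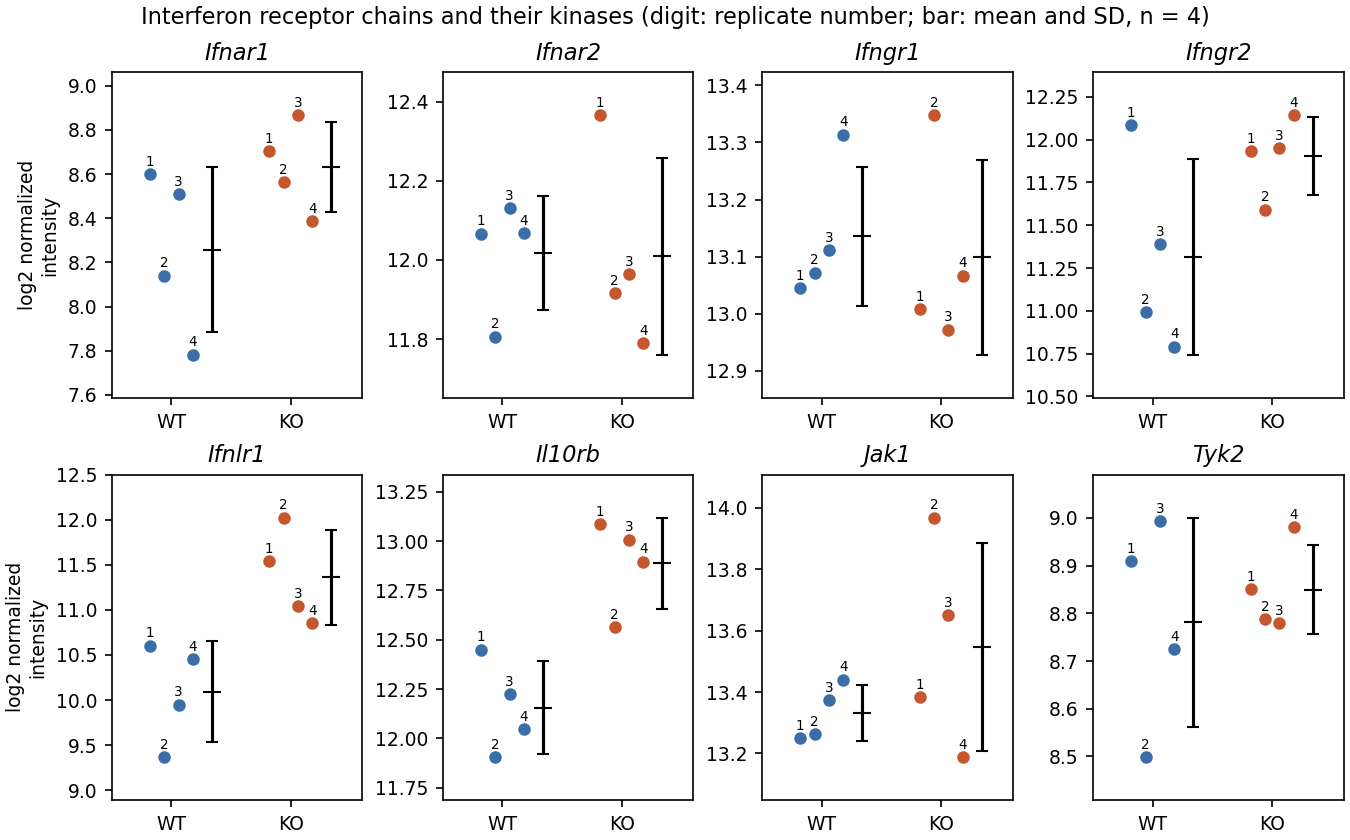
Log2 normalized intensity of the 6 interferon receptor chains and of the kinases Jak1 and Tyk2 on each array. Points are single arrays with their replicate number, and bars give the mean and SD of 4 arrays. KO lies wholly above WT for Ifnlr1 and Il10rb, and the genotypes overlap for the other 6 genes.

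Of a list of 174 interferon pathway genes that are not members, 140 were tested. Of these 140, 6 were called higher and 4 lower in KO. Both shares were smaller than those of all genes tested, 7.53% higher and 8.96% lower. With the replicate block there were 8 and 6, where 19.5% of all genes were called. Ifnlr1 and Irf2 then lost their calls, Apobec3 (adjusted p = 0.0269), Casp4 (0.0499), Ep300 (0.0392) and Slfn4 (0.0257) gained one as higher in KO, and Adar (0.0474) and Ifna5 (0.029) as lower. Slfn4 was well above background on 4 KO but only 3 WT arrays, so it was tested only through KO. Among the 19 receptor and signalling genes the calls were Ifnlr1, Il10rb and Irf2, a factor that competes with IRF1, with a difference of 0.44 (SE 0.13, adjusted p = 0.0464). Among the 35 genes that sense nucleic acids or lead to interferon production, Mavs, the mitochondrial adaptor of the RNA sensors, differed by -0.66 (SE 0.12, adjusted p = 0.0167). Ikbke, a kinase that acts after Mavs, differed by -0.88 (SE 0.17, adjusted p = 0.0175). The KO arrays of Mavs lay within 0.055 of each other, all below the WT arrays.

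Of 79 other induced genes tested, 3 were called higher and 2 lower, against 7.53% and 8.96% of all genes tested. Ifitm1, a membrane protein that hinders virus entry, differed by 0.91 (SE 0.21, adjusted p = 0.0257) and Ifi27l2a, a relative of Ifi27, by 0.76 (SE 0.17, adjusted p = 0.0248). Isg20, an exonuclease, differed by -1.36 (SE 0.29, adjusted p = 0.0221) and Pnpt1, a mitochondrial RNase, by -0.59 (SE 0.10, adjusted p = 0.0139). All 10 called pathway genes had genotypes that did not overlap. Of the 140 pathway genes tested, 11 were without overlap higher in KO and 6 lower, against 11.1% and 12.9% of all genes tested. The p-values of the called pathway genes are from limma with n = 4 per genotype.

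The calls of Pnpt1 held whichever array was left out. Mavs and Ikbke lost theirs without KO3 (adjusted p = 0.0532 and 0.0562). Of the others named, Ifitm1 and Isg20 lost theirs without 3 of the 8 arrays, Ifi27l2a without 4 and Irf2 without 7, with WT2 and KO3 among them each time. Irf2 also lost its call with the replicate block, at an adjusted p of 0.0637. Over the 140 genes, there were 0 calls higher and 3 lower without WT2, 1 and 4 without WT3 or without KO1, 2 and 5 without KO2, 0 and 1 without KO3, 4 and 5 without KO4, 6 and 6 without WT4 and 11 and 7 without WT1. The share of all genes called in these fits ran from 3.64% without KO3 to 21.7% without WT1.

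Zbtb7b, the targeted gene, lay between 9.90 and 10.42 in WT and was not well above background on any KO array, at least 81.5-fold lower (adjusted p = 5.71e-09, limma, n = 4). Luminal epithelial markers were bright on all arrays, with means of 15.78 to 16.07. Of the 10 listed neutrophil markers 7 were tested. Their mean was 7.45 to 8.47 in WT and 9.58 to 10.65 in KO, and 3 of the 7 were called higher (Ngp, Camp, Ltf). Ngp and Camp were not well above background on any WT array, so they were tested only through the 4 KO arrays, where they are high. Their calls, and the rise of the list mean as far as they carry it, follow in part from that choice. Ltf was at 16.00 to 16.56 in WT. S100a9, S100a8 and Retnlg differed by 2.19, 0.49 and 1.09 and Mmp9 by -0.15, and none of these was called. The neutrophil mean was highest on KO1, as was that of the members, but of the WT arrays it was highest on WT4 (8.47) and lowest on WT2 (7.45), where the member mean was lowest and the second highest. The mean of 7 macrophage markers was 10.76, 10.88, 10.99 and 10.68 in WT, the order of the member mean, and 11.09, 10.97, 10.83 and 10.41 in KO, where KO1 and KO2 were again highest. The part of neutrophils and macrophages in the members' values was not tested. Of the other lists, 2 of 8 luminal, 2 of 8 adipocyte, 1 of 8 fibroblast, 1 of 6 NK cell and 1 of 5 B cell markers were called higher. Over all genes tested, 7.53% were called higher. The NK cell call, Ncr1, was well above background on 4 KO but only 2 WT arrays, so it too was tested only through KO. No call was made among 7 macrophage, 8 basal epithelial, 8 endothelial, 6 conventional dendritic cell and 7 plasmacytoid dendritic cell markers (limma), of which 0, 1, 1, 2 and 1 had an unadjusted p under 0.05. An unadjusted p that low was found for 5136 of the 14137 genes tested. Bst2 is both a plasmacytoid dendritic cell marker and a member.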

How the data were processed

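Genotypes and replicate numbers of the 8 arrays, each with 43379 non-control spots, came from the sample labels. The authors deposited the scanner intensity of every spot, from which Agilent Feature Extraction 10.7 (named in the submitters' processing notes) had already taken the background of its array. A second deposited table holds log2 values that the methods describe as quantile-normalized in GeneSpring. Its column medians were 6.33 and its columns correlated with the log2 intensity of their array at 0.9985 or more, so its scale is log2. It served as an alternative, and whether its values carry a constant shift is not known.

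Here the processed intensities were log2-transformed and quantile-normalized across the 8 arrays using limma 3.58.1 under R 4.3.3. Outlier spots as marked by the software, 64 to 100 on an array, were dropped, and no spot was saturated. Remaining spots were averaged per probe, and probe accessions were matched to 18749 symbols of the RefSeq table. Between 66.8% and 75.3% of an array's probes exceeded background well. The filter kept probes that did so on every array of either genotype. The brightest such probe stood for its gene, which gave 14137 genes for limma. Of the members, 10 had more than 1 probe (24 in all), and in 8 of these the probes differed in the same direction. A fold against a genotype not well above background is a lower limit, taken from the bright mean and, per array, the higher of the probe's own signal and the lowest signal well above background. The number of arrays limits the precision, and since the labels do not name the animals, p-values measure the spread between these samples.

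Deviations from the genotype means correlated at 0.16 to 0.30 across genes in the 4 same-numbered pairs. Of the 12 pairs of different numbers (mean -0.079), 4 also exceeded 0.1, with a highest r of 0.34, so the correlations do not single out the same numbers. The methods describe the replicates as coming in sets. The p-values given are from the fit with genotype alone unless the block is named. Because all 4 same-numbered pairs exceeded 0.1, the replicate number was fitted as a block, but only as an alternative. Whether the numbers mark pairs is not known. Blocked values are printed only beside results whose call they alter.

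The members and lists were chosen with earlier results of these data known. Array values are given for members called or not overlapping, for the 3 smallest p-values and for up to 2 members per role with the largest difference. Of the pathway list, a fixed set of receptor and signalling genes and the called genes are named, except items that are not reported here. Alternatives were scaling to the 75th percentile, normexp background correction, the authors' table, no filter or a stricter filter, the mean of a gene's probes, unmatched probes kept, the methods' t-test, the replicate block and leaving out each array. The fit was tested on simulated data with 200 changed genes.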

Additional observations from a re-analysis of the deposited data

Results flagged for a closer look

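Each genotype of 48 genes (31 members and 17 pathway genes, 96 groups of 4 arrays) was searched for an array set apart from the others by Dixon's criterion. Chance gives about 1 in 20 groups, and 1 of the 96 was found. Gbp2, a guanylate-binding protein, read 12.34 on KO1, while the other KO arrays lay between 11.08 and 11.26, so that the gap made up 0.85 of the KO range. KO1 was also the highest KO array for 25 of the 31 members.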

How the results depend on the processing

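The low number of member calls held under every alternative run: Cmpk2 was called under each one that kept all 8 arrays, with adjusted p-values from 0.0147 to 0.0475, and no member was called higher except Parp9 with the replicate block (1 member). Under the methods' t-test (Benjamini-Hochberg) 1389 of all genes were called, and 1 pathway gene was called higher. With no filter 3 pathway genes were called higher. Normexp background correction, run on the median signal in place of the mean signal and chosen after seeing the data, left 2 members without overlap, lower in KO. Of all 14137 genes tested, 1795 were without overlap in that direction under normexp. Leaving out 1 array gave 515 to 3070 calls over all genes, 0 to 1 members called lower, 0 to 11 pathway genes called higher and 1 to 7 lower, 0 to 1 members without overlap higher in KO and 1 to 2 lower. Of all 14137 genes tested, 1657 to 2300 were without overlap higher in KO in these fits and 1915 to 2673 lower. With all 8 arrays these counts were 1576 and 1824. Fewer arrays were then fitted, and why the removal of some arrays raised a count was not tested. The member mean difference ran from -0.21 to 0.10 and the median from -0.27 to 0.13 over these fits, less than the spread between samples.

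Signs changed for 15 of 31 members, each when an array was left out. The lowest and highest differences were then -0.0055 and 0.41 for Ifit2, -0.12 and 0.45 for Ifit3, -0.27 and 0.19 for Isg15, -0.17 and 0.36 for Usp18, -0.41 and 0.079 for Gbp2, -0.28 and 0.13 for Gbp3, -0.37 and 0.24 for Iigp1, -0.36 and 0.069 for Irgm1, -0.41 and 0.012 for Oas2, -0.47 and 0.19 for Oasl1, -0.14 and 0.40 for Oasl2, -0.041 and 0.39 for Rsad2, -0.36 and 0.11 for Xaf1, -0.27 and 0.17 for Irf7 and -0.069 and 0.064 for Irf9. The same held for Ifnar2 (-0.13 and 0.064), Ifngr1 (-0.12 and 0.023) and Tyk2 (-0.026 and 0.14). Irf7 gave 0.0030 with normexp. Irf9 gave -0.031 with 75th percentile scaling, -0.030 with normexp and -0.074 with the mean of its probes. Ifnar2 gave 0.011 with normexp, 0.015 in the authors' table and 0.18 with the mean of its probes. The replicate block changed no member's call but that of Parp9.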
